A study of Mus musculus with 24 samples.

Results

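A set of 10 genes that respond to glucocorticoid hormones in many tissues was followed across 24 Affymetrix arrays of mouse lung RNA. They are Nr3c1, Fkbp5, Tsc22d3, Dusp1, Zbtb16, Klf9, Klf15, Errfi1, Gadd45g and Sgk1. The genes were chosen by name, with earlier results of these data known. Each is represented by every probe set annotated with its symbol alone. This gave 23 of the 22626 probe sets that are not Affymetrix controls. The 10 genes are all among the 8315 genes with a tested probe set. Of the 23 probe sets 22 were bright enough to be tested, and 1 probe set of Klf9, 1452723_at, was not.

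The study exposed mice to diesel exhaust (DE), with or without the allergen ovalbumin (OVA), and measured the lung transcriptome. Ovalbumin was given at 100 ug for 3 days, and its control was saline. Exhaust was given at 500 or 2000 ug/m3, for 4 hours a day over 5 days, and its control was filtered air. The 6 groups of 4 arrays were OVA with filtered air, with DE 500 and with DE 2000, and saline with filtered air, with DE 500 and with DE 2000. Strain, sex, age and route of dosing are not given in the labels used here. The labels name no glucocorticoid treatment, and no hormone level is among the data used here. The labels number the arrays of a group from 1 to 4 and do not say whether these came from separate animals or what a number marks, so p-values measure the spread between these samples.

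Glucocorticoids, corticosterone in the mouse, cross the cell membrane and bind the glucocorticoid receptor, which is encoded by Nr3c1 and held in the cytoplasm by Hsp90 and its co-chaperones. The bound receptor enters the nucleus, where it raises transcription of genes with glucocorticoid response elements and restrains inflammatory genes driven by NF-kappaB and AP-1. In the lung the hormone drives maturation of the epithelium, and its synthetic relatives are the mainstay of asthma treatment. Corticosterone follows a daily rhythm and rises with handling and stress.

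The response element is a palindrome of the hexamer AGAACA and its reverse complement TGTTCT, set apart by a spacer. RefSeq promoter windows of build GRCm38.p6 each ran from 250 bases before to 50 bases after an annotated start. Matched by symbol, they gave 16 windows for 8 of the 10 genes, since a gene can have several starts. Nr3c1 was left out of these by choice, and Zbtb16 had no window. The letters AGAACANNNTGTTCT, searched on both strands, occur in 3 of 32851 windows of all genes (0.00913%). Among these 3 is a window of Sgk1 and is printed first, with capitals marking the matches. The palindrome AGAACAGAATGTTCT begins 189 bases before that start, and the same window holds another hexamer match 242 bases before the start. The shorter core GNACANNNTGTNC occurs in 156 windows (0.475%), the same Sgk1 window among them. The hexamer alone, whose matches include those inside the palindrome, occurs in 6233 windows (19%) and in 4 of the 16 windows of these genes, 3 of Sgk1 and 1 of Tsc22d3. The Tsc22d3 window follows, with its match 185 bases before the start in capitals. The Fkbp5 window is printed last because Fkbp5 carries much of the variation between arrays described here. It holds none of the letters searched, which is a statement about this window alone.
Sgk1, chr10:21993640-21993939, plus strand: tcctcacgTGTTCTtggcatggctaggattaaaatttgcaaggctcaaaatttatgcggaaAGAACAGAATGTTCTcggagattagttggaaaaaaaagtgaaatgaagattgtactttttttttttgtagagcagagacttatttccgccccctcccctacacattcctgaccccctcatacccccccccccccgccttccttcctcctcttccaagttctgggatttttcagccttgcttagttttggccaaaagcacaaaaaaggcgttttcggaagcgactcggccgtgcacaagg
Tsc22d3, chrX:140600473-140600772, minus strand: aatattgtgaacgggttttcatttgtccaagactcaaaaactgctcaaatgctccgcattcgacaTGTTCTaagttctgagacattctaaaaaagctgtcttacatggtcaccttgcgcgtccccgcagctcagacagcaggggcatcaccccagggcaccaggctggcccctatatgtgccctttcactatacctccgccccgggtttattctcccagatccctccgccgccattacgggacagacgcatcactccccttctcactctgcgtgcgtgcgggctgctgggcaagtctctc
Fkbp5, chr17:28486100-28486399, minus strand: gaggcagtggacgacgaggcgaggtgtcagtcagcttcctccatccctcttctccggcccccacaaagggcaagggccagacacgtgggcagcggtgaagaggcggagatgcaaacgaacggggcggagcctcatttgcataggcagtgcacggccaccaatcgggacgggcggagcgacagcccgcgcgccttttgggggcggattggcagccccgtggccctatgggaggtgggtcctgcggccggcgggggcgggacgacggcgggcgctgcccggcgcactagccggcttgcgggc

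Values are Affymetrix MAS5 signals, a linear intensity per probe set and array that the authors scaled to a common trimmed mean. Differences are given on the log2 scale with a standard error (SE) and come from a limma fit of 6 group means to all 24 arrays. A call is an adjusted p under 0.05, after Benjamini-Hochberg adjustment over the 13575 tested probe sets of a comparison, and a gene is called by its main probe set, the brightest. Where the 4 signals of a group are listed, they stand in the order of the array numbers 1 to 4. Intensities of different probe sets are not set against each other, and the number of arrays, 4 a group, limits the precision. The alveolar type 2 and club cell markers read here were bright on all arrays. The surfactant gene Sftpc ranged between 21130 and 41210, and the club cell gene Scgb1a1 between 18240 and 37880. The endothelial marker Pecam1 ranged between 821.6 and 4093. Of the alveolar macrophage markers, Chil3 ranged between 2572 and 4934, while Marco, at 13.48 to 79.21, was too dim to be tested. In lung homogenate a change in the share of a cell type and a change in RNA per cell cannot be told apart. The arrays differed in RNA integrity as seen by the 3'/5' ratio, the log2 signal of the 3' over the 5' control probe sets averaged over Gapdh and actin. It ranged between -0.13 and 2.02 in the OVA groups and between 0.10 and 4.38 in the saline groups, and was above 1 on 1 of the 12 OVA arrays and on 9 of the 12 saline arrays.

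**Figure D1:**
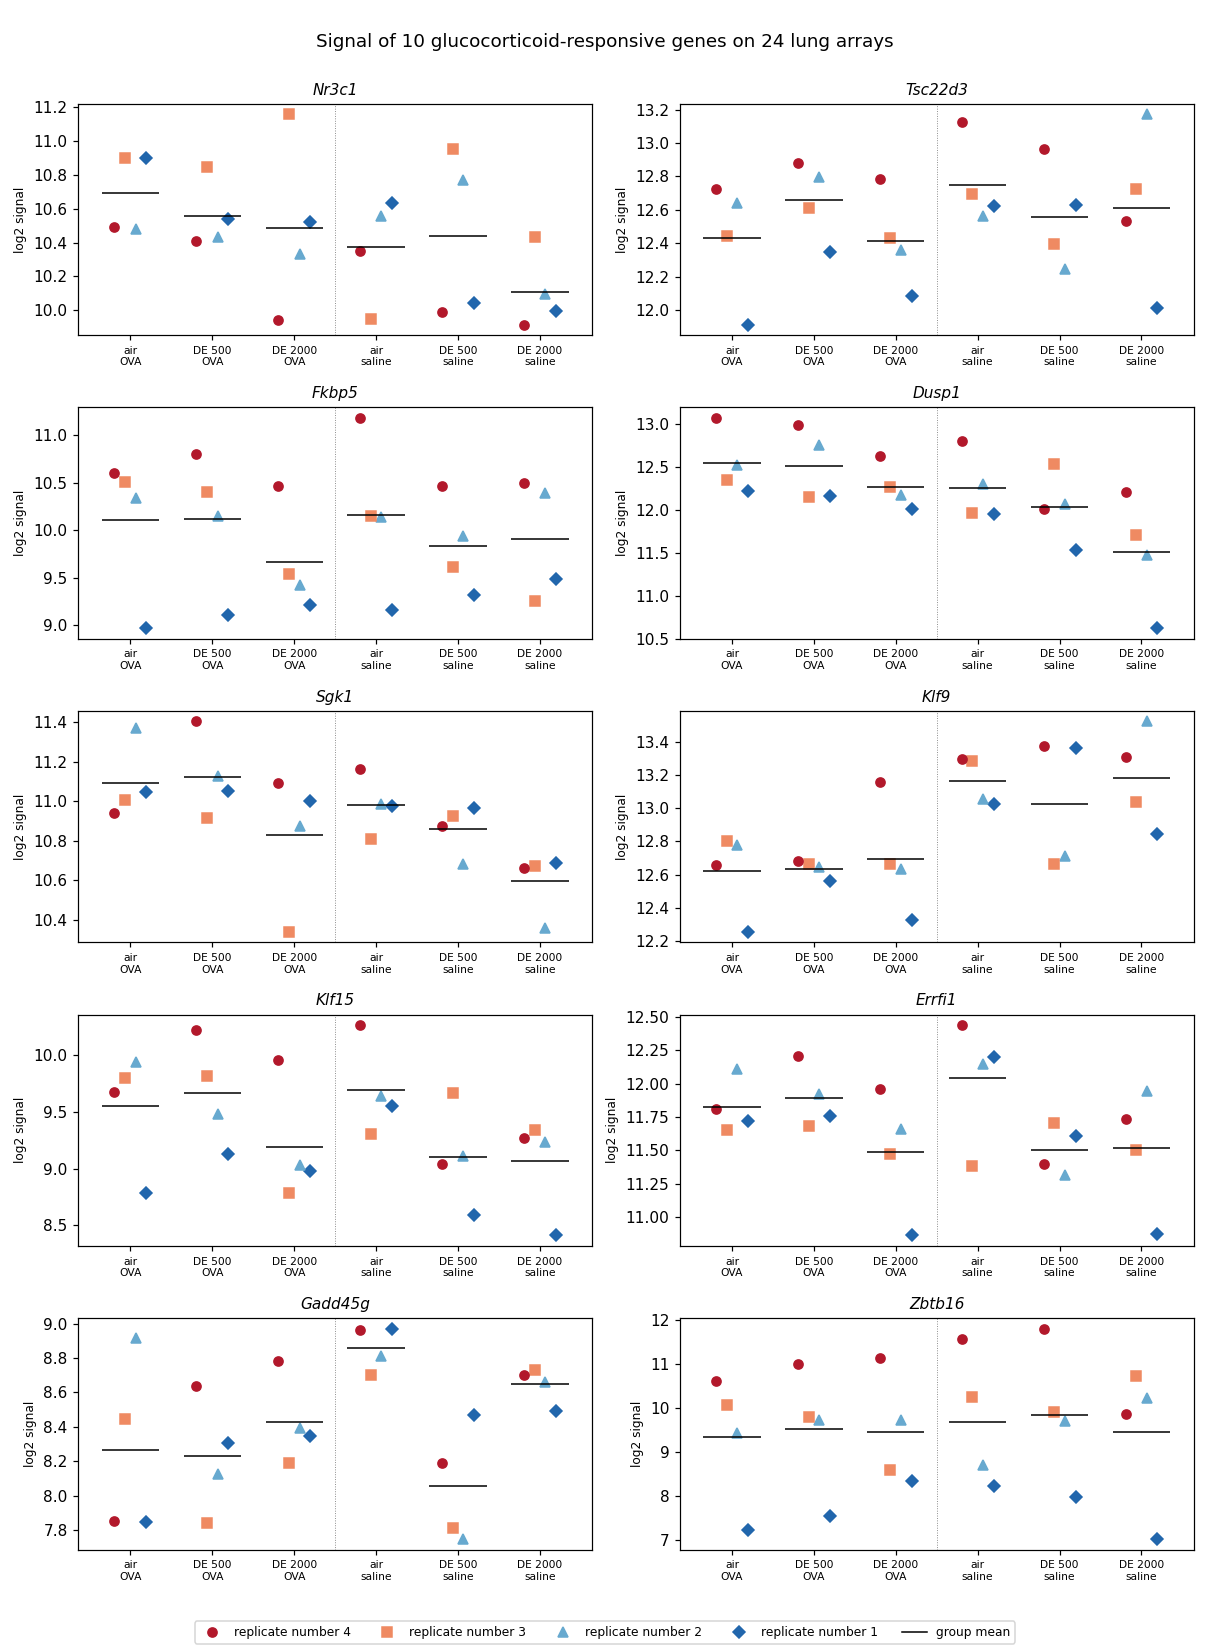
Log2 signal (y axis) of the main probe set of each of the 10 genes on 24 arrays, by group (x axis), with symbols and colours for the replicate number in the sample titles and a line at each group mean of 4 arrays. The red circles of number 4 lie above the blue diamonds of number 1 in all 6 groups for genes that include Fkbp5, Zbtb16 and Dusp1.

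The genes differed in how much they varied among the 24 arrays. Zbtb16, which encodes the zinc finger transcription factor PLZF and is a strongly hormone-induced gene in several tissues, varied most, with signals between 129.3 and 3546 and a standard deviation of 1.33 on the log2 scale. Fkbp5, the Hsp90 co-chaperone that lowers the receptor's affinity for hormone, ranged between 499.9 and 2329 (SD 0.63). Dusp1, the phosphatase that switches off MAP kinases, ranged between 1574 and 8628 (SD 0.53). Klf15, a Kruppel-like transcription factor of amino acid and lipid metabolism, ranged between 340.4 and 1233 (SD 0.50). The other 6 genes had SDs between 0.26 and 0.39, the least being Sgk1 at 1294 to 2709.

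Much of the spread of Zbtb16 and Fkbp5 lay between arrays of one group, and it ran alike in the 6 groups. For Zbtb16 the arrays numbered 4 had 1567, 2029 and 2225 in OVA with air, DE 500 and DE 2000, and 3028, 3546 and 931 in saline with air, DE 500 and DE 2000. The arrays numbered 1, in the same order of groups, had 148.3, 186.3 and 323.4 with OVA and 298, 251.8 and 129.3 with saline. Number 1 was the lowest of its group in 6 of 6 groups, number 4 was the highest in 5, and no array numbered 4 was as low as any numbered 1. Numbers 3 and 2 lay between, with medians over 6 arrays of 1010 and 829.8 against 2127 for number 4 and 219 for number 1. The second probe set of Zbtb16 gave the same picture, with number 1 lowest in 6 of 6 groups and number 4 highest in 4.

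For Fkbp5 the arrays numbered 4 had 1558, 1793 and 1414 in OVA with air, DE 500 and DE 2000, and 2329, 1415 and 1449 in saline with air, DE 500 and DE 2000. The arrays numbered 1, in the same order of groups, had 499.9, 551.1 and 593.8 with OVA and 569.2, 639.4 and 716.7 with saline. Number 4 was the highest of its group in 6 of 6 groups and number 1 the lowest in 5, the exception being saline with DE 2000, where number 3 had 609.4. The arrays numbered 4 and 1 did not overlap over all groups, at 1414 to 2329 against 499.9 to 716.7. Zbtb16 separated in this way too, and the share of all genes that do so was not counted. Over all 8315 genes, number 4 was highest in all 6 groups for 8 genes (0.0962%) and number 1 lowest in all 6 for 6 genes (0.0722%).

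**Figure D2:**
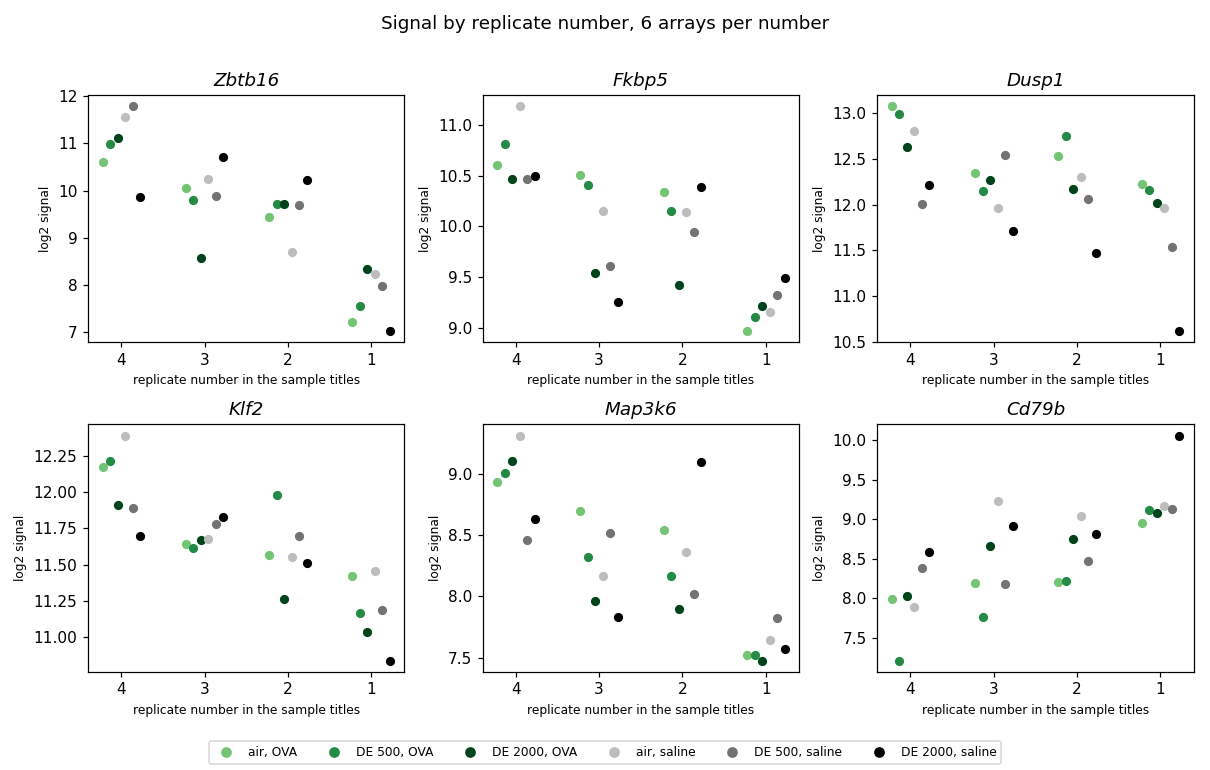
Log2 signal (y axis) of 6 genes by the replicate number in the sample titles (x axis, numbers 4 to 1), with 6 arrays per number coloured by group. Arrays numbered 4 lie above those numbered 1 without overlap for Zbtb16, Fkbp5, Klf2 and Map3k6, and below them without overlap for Cd79b, while the numbers overlap for Dusp1. The share of all genes that separate in this way was not counted.

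A test of the replicate number was added after these values had been seen, so its p-values describe a pattern already noticed. An F-test in limma with the number beside the group, run over all tested probe sets and adjusted over them, called 5 of 8315 genes (0.0601%), and 2 of those 5 are among the 10 genes here. Zbtb16 ranked first of all genes, with a difference of number 4 minus number 1 of 3.27 ± 0.35 (9.67-fold, adjusted p = 0.000648), and for its other probe set the difference was 2.79 ± 0.29 (adjusted p = 0.000339). Zbtb16 kept its call under every other setting that used both arms (adjusted p = 9.71e-05 to 0.0317). Fkbp5 ranked second, at 1.46 ± 0.18 (2.76-fold, adjusted p = 0.00471). Its dimmer probe set, 1448231_at, differed by 0.56 ± 0.28 and was not called (adjusted p = 0.676), and the mean over both probe sets was not called either (1.01, adjusted p = 0.0685). The call of Fkbp5 was also lost when either OVA with DE 500 (adjusted p = 0.0745) or saline with air (adjusted p = 0.0948) was left out.

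The remaining 3 called genes were Klf2, Map3k6 and Cd79b. Map3k6, a MAP kinase kinase kinase that stood on a list of other known hormone-induced genes, differed by 1.31 ± 0.19 (adjusted p = 0.03), with signals of 352 to 635.5 for number 4 against 178.1 to 226.5 for number 1. Klf2, a Kruppel-like factor of endothelium and T cells, differed by 0.86 ± 0.11 (adjusted p = 0.00836). Cd79b, a chain of the B cell receptor complex, ran the other way at -1.23 ± 0.17 (adjusted p = 0.0156), with 148.5 to 383.6 for number 4 against 495.9 to 1067 for number 1. Its partner chain Cd79a, next in rank, differed by -1.08 ± 0.17 and just missed the threshold (adjusted p = 0.0853).

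Of the other 8 genes none was called between replicate numbers. Dusp1 came nearest, ranking 12 of 8315 at 0.87 ± 0.15 (adjusted p = 0.152), and was called when the model held the 3'/5' ratio (0.89, adjusted p = 0.00678). Its number 4 was the highest of the group in 5 groups and its number 1 the lowest in 5. Klf15 ranked 42, at 0.83 ± 0.19 (adjusted p = 0.449). Tsc22d3, which encodes the anti-inflammatory leucine zipper protein GILZ, ranked 102, at 0.57 ± 0.14 (adjusted p = 0.5). Errfi1 (0.42), Klf9 (0.35), Gadd45g (0.11) and Sgk1 (0.07) had smaller positive differences, and Nr3c1 itself had -0.26 ± 0.17. In all, 9 of the 10 genes lay above 0 by their main probe sets, with a median of 0.49 against -0.01 over all tested genes. Opposite in sign to the main probe set were Tsc22d3 1425557_x_at (-0.05 ± 0.16), Errfi1 1419816_s_at (-0.12 ± 0.59) and Nr3c1 1460303_at (0.05 ± 0.16). The remaining tested probe sets had the sign of the main one. At an unadjusted p under 0.05 there were 6 of the 10, against 6.82% of all genes. Since the test was added after values of these genes had been seen, this count is a description.

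Other genes known to be induced by the hormone were read from a list of 37, of which 28 were tested. Number 4 lay above number 1 for 25 of the 28, with a median of 0.27 against -0.01 over all tested genes, and 1, Map3k6, was called. Sult1a1, a sulfotransferase, differed by 0.59 ± 0.11 (adjusted p = 0.0969). Mertk, a receptor for the clearance of dead cells, differed by 0.59 ± 0.11 (adjusted p = 0.1). Per1 (-0.16), Rgs2 (-0.35) and Tnfaip3 (-0.52) were the 3 below 0. Receptor chaperones, cofactors and enzymes were split, with 4 of 9 above 0, and 4 of 7 tested inflammatory genes that the hormone represses were above 0.

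**Figure D3:**
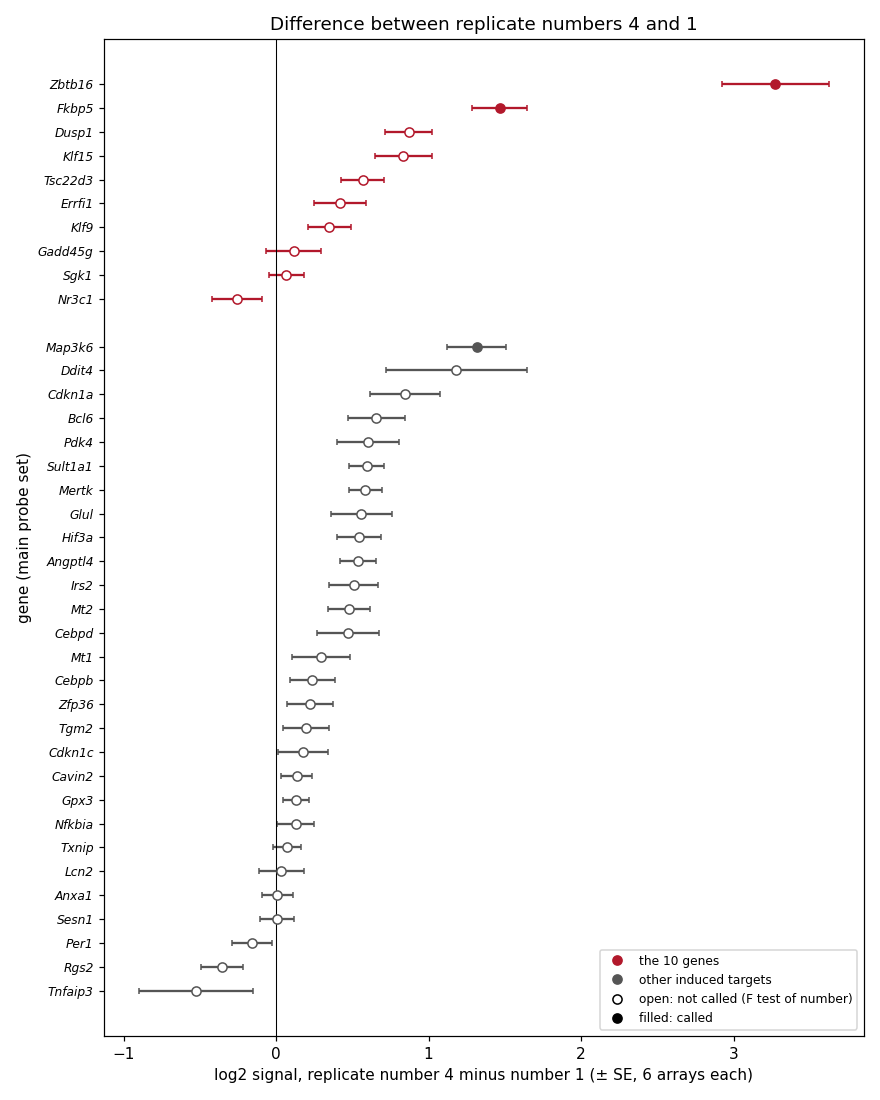
Difference in log2 signal between arrays numbered 4 and arrays numbered 1 (x axis, ± SE, 6 arrays each) for the main probe sets of the 10 genes (red) and of 28 other induced targets (grey), with filled points for genes called by the F-test of the number. Zbtb16 at 3.27, Fkbp5 at 1.46 and Map3k6 at 1.31 are the filled points.

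Within the OVA arrays alone Zbtb16 ranked 1 and Fkbp5 ranked 4 of all genes, with differences of 3.21 ± 0.38 and 1.53 ± 0.22. Within the saline arrays alone they ranked 2 and 3, with 3.34 ± 0.53 and 1.40 ± 0.24. No gene of the array was called in either arm of 12 arrays (0% in each), Zbtb16 having adjusted p = 0.217 with OVA and 0.897 with saline. Several other measures had medians that differed between the numbers, and their part in these differences was not tested. The summed signal of 6 neutrophil markers, 4 of them above the limit on low signals, was 1967 to 5157 (median 2671) for number 4 against 3105 to 6854 (median 4390) for number 1. Of those 4, S100a8 and S100a9 differed by -0.81 and -0.75 between numbers 4 and 1, but Csf3r by 0.04 and Ngp by -0.08. The summed signal of 6 thymus and T lineage markers was 443.2 to 644.1 (median 494.9) for number 4 against 371.4 to 734.6 (median 640.4) for number 1, with Cd4, Cd8a, Rag1, Dntt and Ptcra under that limit. That of 4 adipocyte markers was 974.7 to 2717 (median 1133) for number 4 against 739.6 to 1709 (median 945.7) for number 1. The 3'/5' ratio was 0.04 to 3.77 for number 4 and -0.04 to 4.38 for number 1, and once the model held it Zbtb16 differed by 3.26 (adjusted p = 0.000213) and Fkbp5 by 1.46 (adjusted p = 0.0016).

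The genes whose signal over the 24 arrays was most like that of Fkbp5 were then found, by the root mean square difference of centred log2 signals. Map3k6 was nearest at 0.25, followed by Hif3a at 0.40, Klf2 at 0.43, Klf15 at 0.44 and Fam117b at 0.45, against a median of 0.69 over all genes. Of the 10 genes, Klf15 ranked 4 by this measure, Tsc22d3 7, Errfi1 137, Klf9 197, Dusp1 252 and Sgk1 896. Further away were Gadd45g at 2619, Nr3c1 at 7177 and Zbtb16 at 8035, with 8315 genes tested. For Tsc22d3 the nearest were Rhpn2 at 0.19, Angptl4 at 0.20, Fam117b and Ctla2b both at 0.22 and Tinagl1 at 0.22, against a median of 0.43. For likeness to Tsc22d3, Klf9 ranked 18, Errfi1 353, Gadd45g 2301, Sgk1 2683 and Klf15 3301. Fkbp5 ranked 5215, Dusp1 6392, Nr3c1 6995 and Zbtb16 8265. This measure depends on the spread of a gene as well as on its pattern, and the arrays share their RNA quality and scaling.

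OVA against saline, averaged over the 3 exposures, was the comparison with most called genes on the array. Of the 10 genes 2 were called, Dusp1 higher and Klf9 lower, where 43.6% of all genes were called (19.2% higher and 24.4% lower). The median of the 10 was 0.02, against -0.03 for all genes, with 5 above and 5 below 0. Dusp1 had a lowest, median and highest signal of 4135, 5076 and 8628 over 12 OVA arrays, against 1574, 4059 and 7173 over 12 saline arrays. The groups overlapped, and the difference was 0.51 ± 0.16 (1.43-fold, adjusted p = 0.0141). Klf9, a Kruppel-like repressor induced by the hormone, had 4894, 6475 and 9119 with OVA against 6501, 9241 and 11750 with saline by its main probe set. These overlapped too, and the difference was -0.47 ± 0.11 (1.39-fold lower, adjusted p = 0.00106). Both calls were lost in a model that held the 3'/5' ratio, which left 12.9% of all genes called: Dusp1 then differed by 0.31 (adjusted p = 0.356) and Klf9 by -0.19 (adjusted p = 0.256). Since the ratio differs between the arms, such a model can also take up part of any difference between them.

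Klf9 was the gene whose probe sets disagreed most. Its probe set 1436952_at had 726.4, 1222, 1186 and 1315 in OVA with air, 1151, 1112, 1152 and 1478 in OVA with DE 500, and 770, 1231, 876.7 and 85.72 in OVA with DE 2000. With saline it had 92.18, 311.2, 68.17 and 165.8 in air, 39.24, 331.7, 338 and 69.63 at DE 500, and 120.9, 185.1, 131.9 and 156.6 at DE 2000. The OVA array at 85.72 was the 1 OVA array with a 3'/5' ratio above 1, at 2.02. On the 10 arrays with a ratio above 1 this probe set lay between 39.24 and 185.1, and on the other 14 between 311.2 and 1478, so the ratio separated its signals without overlap. OVA minus saline was 2.68 ± 0.39 (adjusted p = 1.58e-05), opposite in sign to the main probe set, and in the model that held the ratio it was 1.24 ± 0.24 (adjusted p = 0.00124). Probe set 1428289_at followed the main one (-0.41, adjusted p = 0.00775), 1436763_a_at was higher with OVA (0.76, adjusted p = 0.000592), and 1428288_at and 1422264_s_at were not called.

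Of 4 other genes a probe set that was not the brightest was called where the main one was not. For Nr3c1, probe set 1421866_at lay between 64.7 and 445.6 with OVA (median 363.3), against 56.48 and 257.5 with saline (median 93.16). Its arrays with a ratio above 1 lay between 56.48 and 101.5, and the others between 177.7 and 445.6. It was higher with OVA by 1.60 ± 0.29 (adjusted p = 0.000141), 1460303_at by 0.44 ± 0.11 (adjusted p = 0.00302), and the main probe set by 0.27 ± 0.13 without a call (adjusted p = 0.102). The ratio split 1460303_at without overlap too, at 594.3 to 1076 above 1 against 1083 to 1495 on the other arrays. In the model that held the ratio, 1421866_at differed by 0.62 (adjusted p = 0.0671), 1460303_at by 0.07 (adjusted p = 0.68) and the main probe set by -0.13 (adjusted p = 0.546). Tsc22d3 differed by -0.14 ± 0.13 by its main probe set (adjusted p = 0.392) and by 1.05 ± 0.24 by 1425281_a_at (adjusted p = 0.0011). Errfi1, an inhibitor of the EGF receptor, differed by 0.05 ± 0.14 (adjusted p = 0.799) and by 1.64 ± 0.42 in 1419816_s_at (adjusted p = 0.00286). Fkbp5 differed by -0.01 ± 0.25 (adjusted p = 0.988) and by 0.86 ± 0.24 in 1448231_at (adjusted p = 0.00502). For these last 3 probe sets the arrays with a ratio above 1 overlapped the others, at 712.5 to 3937 against 2429 to 7039 for Tsc22d3, 135 to 1120 against 752.3 to 3089 for Errfi1 and 157.3 to 419 against 237.5 to 949.4 for Fkbp5. Over the 22 tested probe sets 8 were called higher, 2 lower and 12 not at all, where 46.3% of all 13575 tested probe sets were called, so the share was near that of the array. In the model that held the ratio 1 was called, Klf9 1436952_at, against 14.1% of all tested probe sets. Sgk1 (0.20 ± 0.09), Klf15 (0.18 ± 0.18), Gadd45g (-0.21 ± 0.12) and Zbtb16 (-0.23 ± 0.54) were not called.

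**Figure D4:**
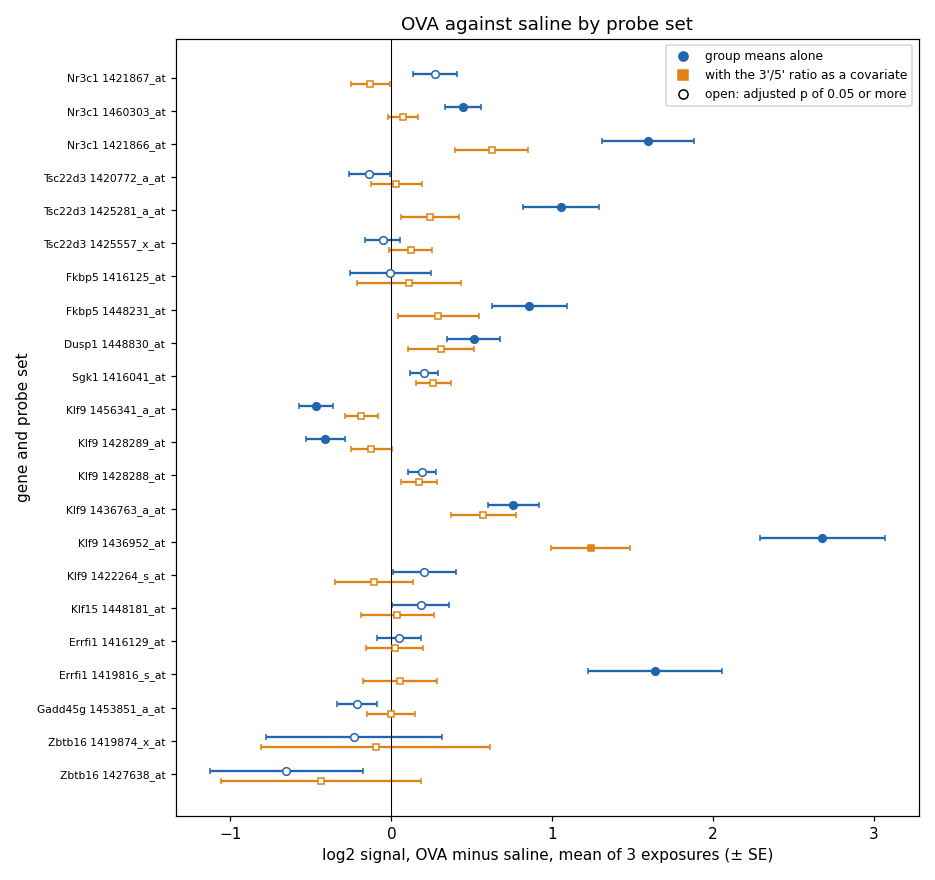
Difference in log2 signal between OVA and saline (x axis, ± SE) averaged over the 3 exposures for the 22 tested probe sets of the 10 genes, from group means alone (blue circles) and from a model that also held the 3'/5' ratio (orange squares), filled where the adjusted p is under 0.05. The 2 called falls and 8 called rises from group means alone include rises and falls of Klf9, and 1 square is filled.

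Within single exposures fewer calls were made. In filtered air 1 of the 10 genes was called (13.1% of all genes), Klf9, with 4894, 7014, 7142 and 6461 with OVA against 8339, 8522, 9960 and 10060 with saline. These did not overlap, though the share of all genes that separate in this way was not counted. The difference was -0.54 ± 0.18 (adjusted p = 0.0485), a call lost when any 1 of the 8 arrays was left out (adjusted p = 0.0561 to 0.158). Gadd45g, a growth arrest and DNA damage gene, differed there by -0.59 ± 0.22 (adjusted p = 0.063). At DE 500 none of the 10 was called (10.8% of all genes), and 1 had an unadjusted p under 0.05 (28.6% of all genes). At DE 2000 none was called (17.0% of all genes), with Dusp1 at 0.77 ± 0.28 (adjusted p = 0.0628) and Klf9 at -0.48 ± 0.18 (adjusted p = 0.0692), both with an unadjusted p under 0.05 (30.8% of all genes).

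Genes of the wider pathway were called in both directions between OVA and saline, in a comparison that called 43.6% of all genes and in which the 3'/5' ratio was above 1 on 1 of 12 OVA arrays and on 9 of 12 saline arrays. Counts of the lists are therefore given with those from the model that held the ratio, which called 12.9% of all genes. Of 9 tested genes of the receptor machinery 4 were higher, 2 lower and 3 not called, and 2 were called with the ratio held, Hsd11b1 higher and Hsp90aa1 lower. Hsd11b1, the enzyme that regenerates active hormone inside cells, was higher by 0.81 ± 0.12 (adjusted p = 2.46e-05), and the coactivator Ncoa1 by 0.28 ± 0.07 (adjusted p = 0.00331). The chaperone Hsp90aa1 was lower, with a difference of -0.68 ± 0.10 (adjusted p = 1.89e-05) and so was Bag1 at -0.40 ± 0.11 (adjusted p = 0.00493). Among 28 other induced targets 4 were higher, 4 lower and 20 not called, and with the ratio held 2 were called, Per1 and Irs2, both lower. Per1, a clock gene with a response element, was lower at -0.61 ± 0.09 (adjusted p = 1.94e-05), the insulin receptor substrate Irs2 at -0.70 ± 0.14 (adjusted p = 0.000284), and Bcl6 at -0.52 ± 0.16 (adjusted p = 0.00966). Anxa1, the phospholipase-inhibiting annexin, was higher by 0.33 ± 0.07 (adjusted p = 0.00071), and Zfp36, which destabilises cytokine mRNAs, by 0.39 ± 0.11 (adjusted p = 0.00662).

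Downstream of Sgk1, the kinase that keeps epithelial sodium channels at the cell surface, 2 of 7 sodium transport genes were lower with OVA and 5 not called, and with the ratio held 1 was called, Scnn1b. The 2 were the channel subunits Scnn1a (-0.41 ± 0.11, adjusted p = 0.00342) and Scnn1b (-0.28 ± 0.07, adjusted p = 0.00176). Of 7 tested inflammatory genes that the hormone represses 1 was higher, Il1a (0.82 ± 0.22, adjusted p = 0.00473), and 6 were not called, with 0 of 7 called once the ratio was held (Il1a 0.40, adjusted p = 0.346), while 11 others of that list lay under the limit on low signals. Of 12 clock genes 6 were lower and 1 higher, among them Per1, given above, Hlf (-1.10 ± 0.12, adjusted p = 4.08e-07), Tef (-0.38 ± 0.06, adjusted p = 2.65e-05), Cry2 (-0.67 ± 0.11, adjusted p = 5.99e-05) and Per3 (-0.59 ± 0.10, adjusted p = 7.02e-05), with Per2 higher (0.46 ± 0.18, adjusted p = 0.0389). With the ratio held 6 were called, all lower, with Nr1d1 in place of Dbp, and Per2 was at -0.12 (adjusted p = 0.681). Immediate early genes had 3 higher and 3 lower of 13, and 1 called with the ratio held, Jund, with Fos higher (0.65 ± 0.13, adjusted p = 0.000495) and Jund lower (-0.67 ± 0.09, adjusted p = 4.98e-06).

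Exhaust against filtered air called none of the 10 genes in any of its 4 comparisons, and few genes of the array were called in them. At DE 2000 with saline 0.108% of all genes were called, and 9 of the 10 genes lay below 0, with a median of -0.26 against -0.01 for all genes. At an unadjusted p under 0.05 there were 3 of the 10, against 5.44% of all genes. Dusp1 had 1574, 2842, 3358 and 4752 at DE 2000 against 3980, 5044, 3992 and 7173 in air. These overlapped, and the difference was -0.75 ± 0.28 (adjusted p = 0.586). Sgk1 had 1647, 1311, 1629 and 1620 at DE 2000 against 2014, 2028, 1792 and 2289 in air. All 4 exposed arrays were below all 4 air arrays, but how many of all genes separate in this way was not counted. The difference was -0.39 ± 0.15 (adjusted p = 0.586). Klf15 (-0.63 ± 0.31) and Errfi1 (-0.53 ± 0.23) were of similar size, and Klf9 was at 0.01 ± 0.18.

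At DE 500 with saline 0.0120% of all genes were called, and 8 of the 10 genes lay below 0, with a median of -0.21 against -0.03. Gadd45g had 355.1, 215.2, 224.6 and 291.7 at DE 500 against 501.5, 448.5, 415.9 and 499 in air. These did not overlap, and the difference was -0.81 ± 0.22 (adjusted p = 0.239); in a model that held the 3'/5' ratio it was called (-0.86, adjusted p = 0.0459). Gadd45g at DE 2000 with saline, 360.6, 405.4, 423.9 and 416.9, lay above all 4 arrays at DE 500, by 0.59 ± 0.22 (adjusted p = 0.838). For neither separation of Gadd45g was the share of all genes that separate in this way counted. Klf15 differed at DE 500 by -0.59 ± 0.31 and Errfi1 by -0.54 ± 0.23. Both saline comparisons share the 4 air arrays. Of the 10 genes 2 had an unadjusted p under 0.05, against 7.30% of all genes.

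With OVA, DE 2000 called 0.0361% of all genes, and 7 of the 10 genes lay below 0, with a median of -0.23 against -0.02. The differences were between -0.44 ± 0.43 for Fkbp5 and 0.16 ± 0.22 for Gadd45g, and none had an unadjusted p under 0.05, against 8.09% of all genes. DE 500 with OVA called no gene of the array (0%; 0.914% at an unadjusted p under 0.05), and the 10 lay between -0.14 for Nr3c1 and 0.23 for Tsc22d3. The intervals leave room for sizeable differences. For Fkbp5 the 95% interval at DE 2000 with saline ran between -1.15 and 0.64, and for Zbtb16 between -2.18 and 1.72. Both come from the fit of group means alone, in which the differences between array numbers within a group count as error and widen the interval. DE 2000 against DE 500 called none of the 10, with 0.0601% of all genes called with saline and 0.0241% with OVA (5.75% and 9.85% at an unadjusted p under 0.05). The interactions of OVA with DE 2000 and with DE 500 called no gene of the array (0% each, and 5.36% and 2.81% at an unadjusted p under 0.05), the smallest unadjusted p among the 10 being 0.019 for Gadd45g at DE 500 (0.77 ± 0.30, adjusted p = 1).

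**Figure D5:**
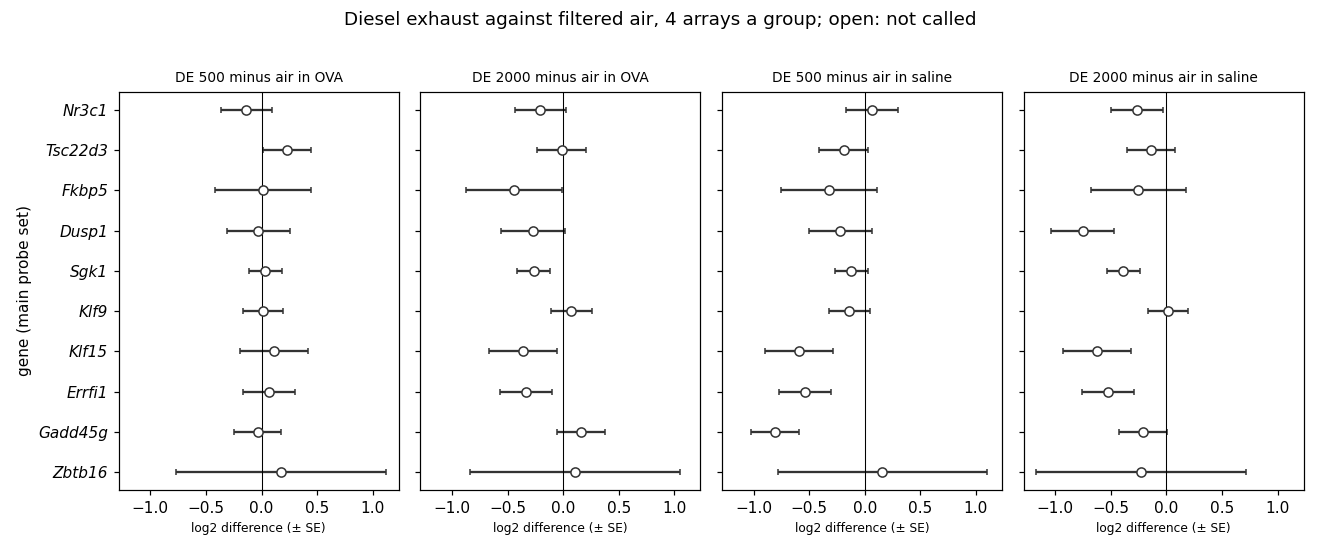
Difference in log2 signal between diesel exhaust and filtered air (x axis, ± SE, 4 arrays a group) for the main probe set of each of the 10 genes, in 4 panels by dose and by OVA or saline. All points are open because no gene passed the adjusted threshold, and with saline at DE 2000 all but Klf9 lie below 0.

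Few genes of the hormone's wider set were called between exhaust and air. At DE 2000 with saline 1 of 28 other induced targets was called, Lcn2, an iron-carrier protein that is also an acute phase gene, which was higher by 0.97 ± 0.18 (adjusted p = 0.018). The summed signal of neutrophil markers, a cell type that also makes Lcn2, was 4947 to 11140 in that group against 2536 to 3971 in saline with air, and its part in the difference was not tested. Of the same 28 genes 20 lay below 0, with a median of -0.08. Limma called none of the 9 receptor machinery genes, 7 inflammatory genes, 7 sodium transport genes, 13 immediate early genes or 12 clock genes there. In that order, 1, 2, 0, 3 and 0 of them had an unadjusted p under 0.05, against 5.44% of all genes. Il1b (0.75 ± 0.22, adjusted p = 0.27), Mmp9 (0.52 ± 0.16, adjusted p = 0.301) and Junb (0.63 ± 0.17, adjusted p = 0.186) had the smallest unadjusted p among them. At DE 2000 with OVA all 12 clock genes lay below 0, at -0.16 to -1.54 with a median of -0.44, against -0.02 for all genes. An unadjusted p under 0.05 was found for 6, against 8.09% of all genes, but none was called. Per1 was at -0.52 ± 0.16 (adjusted p = 0.502) and Nr1d1 at -1.54 ± 0.41 (adjusted p = 0.492). The group OVA with DE 2000 holds the 1 OVA array with a 3'/5' ratio above 1, at 2.02, and the part of the ratio in these differences was not tested.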

How the data were processed

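Per the labels' protocols, RNA of frozen lung was extracted with RNeasy and 2 ug of total RNA was made into biotinylated cRNA. The deposited values are intensities on a linear scale that the authors computed with MAS5, per the submitters' processing notes; the sources used here give no version. Of 22690 probe sets 64 controls were set aside. Signals were taken to log2 with no pseudocount, and the 13575 probe sets whose mean log2 signal was above the 40th percentile (a geometric mean of 138) were tested. Genes were named from the platform annotation by symbols standing alone on a probe set. The functions lmFit, contrasts.fit and eBayes (trend on) of limma 3.58.1, run in R 4.3.3, fitted 6 group means to 24 arrays for 12 comparisons, two-sided, with Benjamini-Hochberg adjustment. Figures were drawn with Python 3.11.15 and matplotlib 3.10.9. Detection calls were not used here.

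The 10 genes and the other lists were chosen with earlier results of these data known. From each list the text names called genes, up to 6, and up to 4 genes of smallest p in the OVA and DE 2000 comparisons; Klf2, Cd79b and Cd79a were named after their values were seen. Alternatives were quantile normalization, scaling to a common median, no filter, a pseudocount of 16.2, weights for arrays, a stricter filter (60th percentile), a flat variance prior (no trend), the brightest probe set of each gene alone, the mean over a gene's probe sets, the 3'/5' ratio or the B1 control signal as a covariate, the replicate block, the groups compared alone, and leaving out each array. The replicate-number test and its alternatives, and the list counts with the ratio held, were added after seeing the data. Same-numbered arrays did not deviate together in every pair of groups (correlations between -0.43 and 0.59), so numbers were not taken as pairs. Both tests were run on simulated data with 200 changed probe sets of 13575. The test of DE 2000 against air under saline recovered 69% of 2-fold and 95% of 4-fold changes, with 9 false calls. The replicate-number test recovered 85% and 98%, with 11 false calls. The simulated noise was normal and independent between arrays and probe sets, without the shared differences in RNA integrity of the real arrays, so recovery in these data can differ.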

Additional observations from a re-analysis of the deposited data

Results flagged for a closer look

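A gap test within each group of 4 arrays marked 3 of 60 sets of values of the 10 genes, and chance marks about 1 in 20. Fkbp5 was at 499.9 on array 1 of OVA with air, where the other 3 arrays lay between 1299 and 1558. Sgk1 was at 1311 on array 2 of saline with DE 2000, where the others lay between 1620 and 1647. Klf15 was at 340.4 on array 1 of saline with DE 2000, where the others lay between 604.1 and 649.8.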

How the results depend on the processing

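Of 1530 differences of the 10 genes under other settings, 1424 kept their sign and side of the threshold, 10 lost a call, 14 gained one, 4 turned round with a call and 78 changed sign without one. The mean over probe sets moved the number of genes called between OVA and saline to 5 of 10 from 2, to 2 from 1 in air, to 3 from 0 at DE 500 and to 1 from 0 at DE 2000. It turned Tsc22d3 to 0.29 and Klf9 to 0.49 on average, and Klf9 to 0.55 in air and 0.75 at DE 500. Models holding the 3'/5' ratio or the signal of B1 each left 0 called on average and 0 in air (with B1, Dusp1 0.27, adjusted p = 0.678, and Klf9 -0.01, adjusted p = 0.991). The log2 signal of B1 was 10.9 to 12.4 on the OVA arrays and 12.1 to 13.8 on the saline arrays. Since B1 differs so between the arms, holding it can also take up part of any difference between them. In air 0 were called with quantile normalization, no filter or no trend, and 2 with array weights; scaling to a common median called 1, Gadd45g in place of Klf9. At DE 2000 with OVA against saline 1 was called with array weights or quantile normalization. The 3'/5' ratio gave 1 call, Gadd45g, for DE 500 against air in saline. Leaving out 1 array gave 2 to 3 calls for OVA on average, 0 to 1 in air and 0 to 1 at DE 2000, and 0 in every exhaust comparison and interaction. Between replicate numbers 1 gene was called with the mean over probe sets, without saline and air, or without OVA and DE 500, 0 with OVA or saline arrays alone, and 2 to 3 without 1 array. The cause of these changes was not tested.

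With the replicate block 1 gene was called at DE 2000, Dusp1 (0.77, adjusted p = 0.00862), and Sgk1 was called on average (0.20, adjusted p = 0.0476). For each array, correlations with the arrays of the other groups were averaged by number. For 11 of 24 arrays their own number had the highest mean of the 4 numbers. Of 190 differences between replicate numbers 178 kept sign and side, 7 lost a call, 4 gained one and 1 changed sign without one. Dim probe sets, 4 arrays a group and uneven RNA integrity limit what can be shown.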
